A study of Homo sapiens with 12 samples.

Results

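Nutlin-3 was compared with its solvent DMSO in U2OS, an established osteosarcoma cell line of human origin whose own p53 is wild type per the labels, on 6 of the series' 12 arrays. The treated group was exposed to 10 µM nutlin-3 and the control group to 0.1% DMSO, both for 24 hours, with 3 arrays in each group. Where it shows how this response stands apart, it was set beside that to 0.6 µg/ml doxorubicin, measured against untreated cells on the other 6 arrays. Every probe set other than the array's own controls was taken from the deposited table of signal intensities (MAS5, a linear scale), and the genes tested were not selected by their change. A gene was represented by its brightest probe set, 13673 genes passed the filter on dim signal (a mean of 49.3), and each was tested on log2(value + 16) with limma. The filter used the mean over all 12 arrays, treated arrays included. A gene dim with DMSO could therefore pass through a group where it was high. A gene is said to have risen or fallen where its Benjamini-Hochberg adjusted p over all 13673 genes was under 0.05. All changes below are log2 changes on that scale, which understates those of dim genes. U2OS is 1 cell line, and no label says that the arrays of a group came from separately grown cells. The p-values therefore cover no more than the spread between these arrays, which may be technical.

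p53 is a transcription factor that is kept scarce by MDM2, a ubiquitin ligase that binds it and marks it for destruction. Nutlin-3 occupies the pocket of MDM2 that binds p53, so p53 accumulates in cells whose DNA has not been broken. p53 then switches on genes for cell cycle arrest, apoptosis, repair and metabolism, MDM2 itself among them. The p21 protein that it induces inhibits cyclin-dependent kinases. Their inhibition leaves the pocket proteins p107 and p130 in the DREAM repressor complex, which shuts E2F and CHR promoters of cell cycle genes.

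The 6 arrays were more alike within groups than across them. Array medians lay between 79.6 and 90.1, and Pearson's r across genes was 0.987 to 0.991 between nutlin-3 arrays, 0.988 to 0.99 between DMSO arrays and 0.964 to 0.97 across the groups. For the ACTB control, signal at the 3' end over that at the 5' end was 1.305 ± 0.026 with nutlin-3 and 1.276 ± 0.028 with DMSO (SD, n = 3, exact 2-sided permutation p = 0.2, where the smallest possible p is 0.1). For the spiked-in dap control it was 2.51 ± 0.049 with nutlin-3 and 2.63 ± 0.024 with DMSO (SD, n = 3), groups that did not overlap (exact 2-sided permutation p = 0.1), and its part in the results was not tested. Of 12 osteoblast lineage markers, 6 had a mean over the filter signal, among them COL1A1, SPARC and RUNX2, while ALPL, SP7, IBSP and DLX5 did not.

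With nutlin-3, 1713 genes rose and 1900 fell, together 26.4% of the genes tested. The median change of all genes was 0.0056, that of the genes that rose 0.57 and that of the genes that fell -0.57. Rises reached further than falls: 59 genes rose and 4 fell at least 4-fold, while 355 rose and 266 fell at least 2-fold. The arrays of both groups did not overlap for 1681 of the genes that rose and 1870 of those that fell, beside 43.1% of all genes. When the untreated arrays took the place of the DMSO arrays, 5432 genes were called. DMSO against untreated cells itself gave 1930 calls, 14.1% of the genes.

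MDM2, the target of the drug, rose more than the other listed regulators of p53. Its signal was 4359, 4649 and 4248 on the DMSO arrays and 20516, 19161 and 18859 on the nutlin-3 arrays, a change of 2.14 (SE 0.071, adjusted p = 9.0e-12). The groups lay far apart, and the 8 MDM2 probe sets that were tested all rose, by 1.36 to 3.42. MDM4, the partner of MDM2 that masks p53 without degrading it, read 3456, 3153 and 3133 with DMSO and 3865, 2866 and 3141 with nutlin-3. Its groups overlapped, its change was 0.0091 (SE 0.098, adjusted p = 0.96), and none of its 6 probe sets was called.

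Of 12 listed regulators of p53, 3 rose and 4 fell, where 12.5% of all genes rose and 13.9% fell, and the list's median change was -0.03. PPM1D, the phosphatase WIP1 that removes activating phosphates from p53 and its kinases, went from 4424 ± 509.8 to 8345 ± 459 (SD, n = 3), a rise of 0.92. CCNG1, the cyclin G1 that recruits a phosphatase to MDM2, rose by 0.95, with 8324, 9647 and 9909 on the DMSO arrays and 16263, 18007 and 19455 on the nutlin-3 arrays. AURKA, a mitotic kinase that also phosphorylates p53, fell by 0.59. PPM1G fell by 0.40, USP7, the deubiquitinase of MDM2, by 0.36 and SIAH1 by 0.37. With another probe set AURKA changed by -0.07 and USP7 by -0.15, neither of them called. The call of SIAH1 was lost in 11 of 18 alternatives. The ubiquitin ligases COP1 (0.22), RCHY1 (0.25) and TRIM24 (-0.068) and the kinase DYRK2 (-0.19) did not pass the test.

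**Figure D1:**
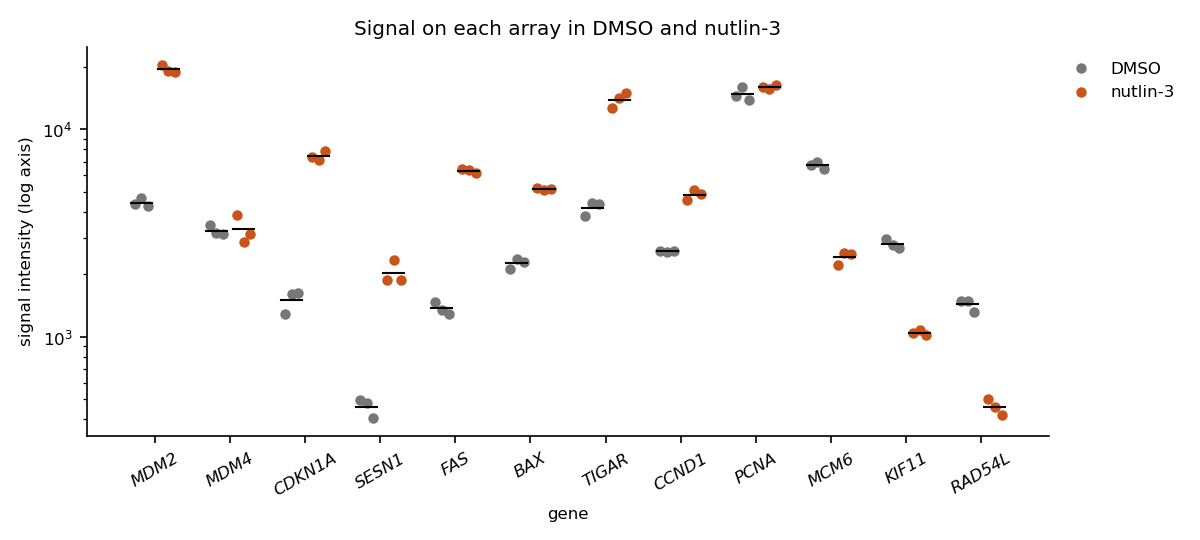
Signal intensity (log axis) of 12 genes on the 3 DMSO arrays (grey) and the 3 nutlin-3 arrays (orange), with bars at the group means. MDM2 rose from a mean of 4419 to 19512 and CDKN1A from 1507 to 7469.9, MCM6, KIF11 and RAD54L lie lower with nutlin-3 on every array, and the groups of MDM4 and PCNA overlap.

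The p53 targets that slow the cell cycle or feed back on p53 rose together. All 20 tested members rose, from 0.52 for SFN to 2.51 for TP53INP1, with a median of 1.10, where 12.5% of all genes rose. The arrays did not overlap for any of them. KLHL26 and RPRM lay under the filter, and BTG2 was not analysed here. CDKN1A, which encodes p21, read 1292, 1603 and 1627 with DMSO and 7361, 7143 and 7906 with nutlin-3, and rose by 2.30 (SE 0.11, adjusted p = 1.9e-10). TP53INP1, a stress protein that aids p53 phosphorylation and autophagy, rose from 722, 750.0 and 771 to 4333, 4329 and 4299.9. SESN1, a sestrin that restrains mTORC1, rose from 458 ± 47.8 to 2035 ± 274 (SD, n = 3). ZMAT3, an RNA-binding splicing regulator, rose by 1.89, and by 1.20 against the untreated arrays. The polo-like kinase PLK3 rose by 1.53, GADD45A, a growth arrest protein that binds PCNA, by 1.18, and the ligase subunit FBXW7, which marks cyclin E for destruction, by 1.28. Smaller rises were those of the antiproliferative gene BTG1 (0.88), PLK2 (0.65) and RPS27L (0.68), although another probe set of RPS27L rose by 1.73. Apart from MDM2 and PPM1D, described above, and CCNG2, the other members rose by 0.94 (CDIP1) to 1.53 (TRIM22). Among them were SESN2 at 1.00, PHLDA3, which restrains AKT, at 1.01 and CPEB4 at 1.19. CCNG2 rose by 0.60, but by 0.19 against the untreated arrays, where it was not called.

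Among p53 targets in apoptosis, death receptor and mitochondrial genes rose, and the response was less even. Of 20 tested members, 13 rose and 1 fell, with a median of 0.61, where 12.5% of all genes rose and 13.9% fell. CYFIP2, which binds the FMRP and WAVE complexes, rose most, by 2.23 (SE 0.093). FAS, the receptor of Fas ligand, read 1476, 1349 and 1291 with DMSO and 6449, 6350.3 and 6192 with nutlin-3. Its change was 2.19 (SE 0.077, adjusted p = 9.0e-12), and the groups did not overlap. The 5 probe sets of FAS rose by 1.09 to 2.42. TNFRSF10B, the TRAIL receptor DR5, rose from 4256, 3769.7 and 4269 to 12560.0, 9308 and 10967, a change of 1.41. Its paralog TNFRSF10A was dim, at 90.1, 101 and 72.2 with DMSO and 50.6, 68.2 and 31.4 with nutlin-3, and its change of -0.68 was not called (adjusted p = 0.098). TP53I3, an oxidoreductase that makes reactive oxygen, rose by 2.16 and TRIAP1, a mitochondrial lipid carrier that opposes apoptosis, by 1.45. BAX, which opens the outer mitochondrial membrane, had 2118, 2363 and 2291 on the DMSO arrays and 5200.4, 5129 and 5143 on the nutlin-3 arrays, a rise of 1.19 (SE 0.096). PMAIP1, the BH3-only protein NOXA, rose by 0.50. PIDD1, the scaffold of a caspase-activating complex, rose by 1.13, EI24 by 0.85, IKBIP by 0.80, the nuclease AEN by 0.72, APAF1, the core of the apoptosome, by 0.40 and BID by 0.35. The call of APAF1 was lost in 7 of 18 alternatives and that of BID in 5. STEAP3, a metalloreductase, fell by 0.36, a call lost without DMSO replicate 1 (-0.27) and with another probe set (-0.26). PERP, SHISA5, AIFM2, TP53AIP1 and CASP1 lay between 0.14 and 0.44 and did not pass the test. Against the untreated arrays PERP (0.40), AIFM2 (0.37), TP53AIP1 (0.95) and CASP1 (0.68) were called, and 17 of the 20 members rose. CASP1 was also called without DMSO replicate 2 (0.62).

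In the wider BCL2 family both killers and protectors rose. Of 19 tested members 7 rose and 3 fell, with a median of 0.33, where 12.5% of all genes rose and 13.9% fell. BCL2A1, an antiapoptotic member, was near background with DMSO, at 21.2 ± 2.71, and read 408 ± 42.1 with nutlin-3 (SD, n = 3), a rise of 3.51 (SE 0.25). Its mean was 27.2 in untreated cells and 48.3 with doxorubicin, both under the filter signal, so it passed the filter only through the nutlin-3 arrays. The antiapoptotic BCL2L1, which encodes BCL-XL, rose from 917, 958 and 867 to 1649, 1809.7 and 1813, by 0.93, and BAK1, a pore former like BAX, by 0.86. MCL1, another protector, rose by 0.58. BNIP3 fell by 0.44 and BCL2L12 by 0.61, and neither was called against the untreated arrays (-0.08 and -0.29). BCL2L11, the BH3-only protein BIM, fell by 0.81. Its DMSO arrays read 781, 717 and 578 and its nutlin-3 arrays 365, 390.4 and 397, and the mean over its 7 probe sets changed by -0.36. The brighter probe set of BCL2 changed by 0.043 and was not called, while its other probe set fell by 0.81 (adjusted p = 0.0085).

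Targets of p53 in DNA repair and metabolism rose in 14 of 19 tested members and fell in none, with a median of 1.00. Over all genes 12.5% rose and 13.9% fell. TIGAR, a phosphatase that slows glycolysis, read 3802, 4409 and 4379 with DMSO and 12688, 14197 and 14913 with nutlin-3, a rise of 1.73 (SE 0.088, adjusted p = 5.8e-10). RRM2B, the p53-induced subunit of ribonucleotide reductase, rose from 1569 ± 77.5 to 4978 ± 458 (SD, n = 3), a change of 1.65. XPC and DDB2, which find ultraviolet lesions for excision repair, rose by 1.15 and 0.97, and POLH, the polymerase that copies past them, by 0.93. ACER2, an alkaline ceramidase, rose by 2.16, FUCA1, a lysosomal fucosidase, by 1.55 and CES2, a carboxylesterase, by 1.54. ASCC3, a helicase of alkylation repair, rose by 1.18, FBXO22, a ubiquitin ligase subunit, by 1.35, SAT1, which acetylates polyamines, by 1.01 and PANK1, which starts coenzyme A synthesis, by 1.00. The smallest rises were those of CMBL (0.60, or 2.33 with another probe set) and the AMPK subunit PRKAB1 (0.41, lost in 5 of 18 alternatives). ABHD4, SCO2, ALDH4A1, LPIN1 and DDIT4 lay between -0.24 and 0.17 and were not called. Against the untreated arrays ABHD4 (-0.58), LPIN1 (-0.54) and SCO2 (0.27) passed the test. Without nutlin-3 replicate 1 LPIN1 changed by -0.42 and passed it. Another probe set of ALDH4A1 rose by 0.81 (adjusted p = 0.049), and without DMSO replicate 3 DDIT4 changed by 0.43 and passed it.

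**Figure D2:**
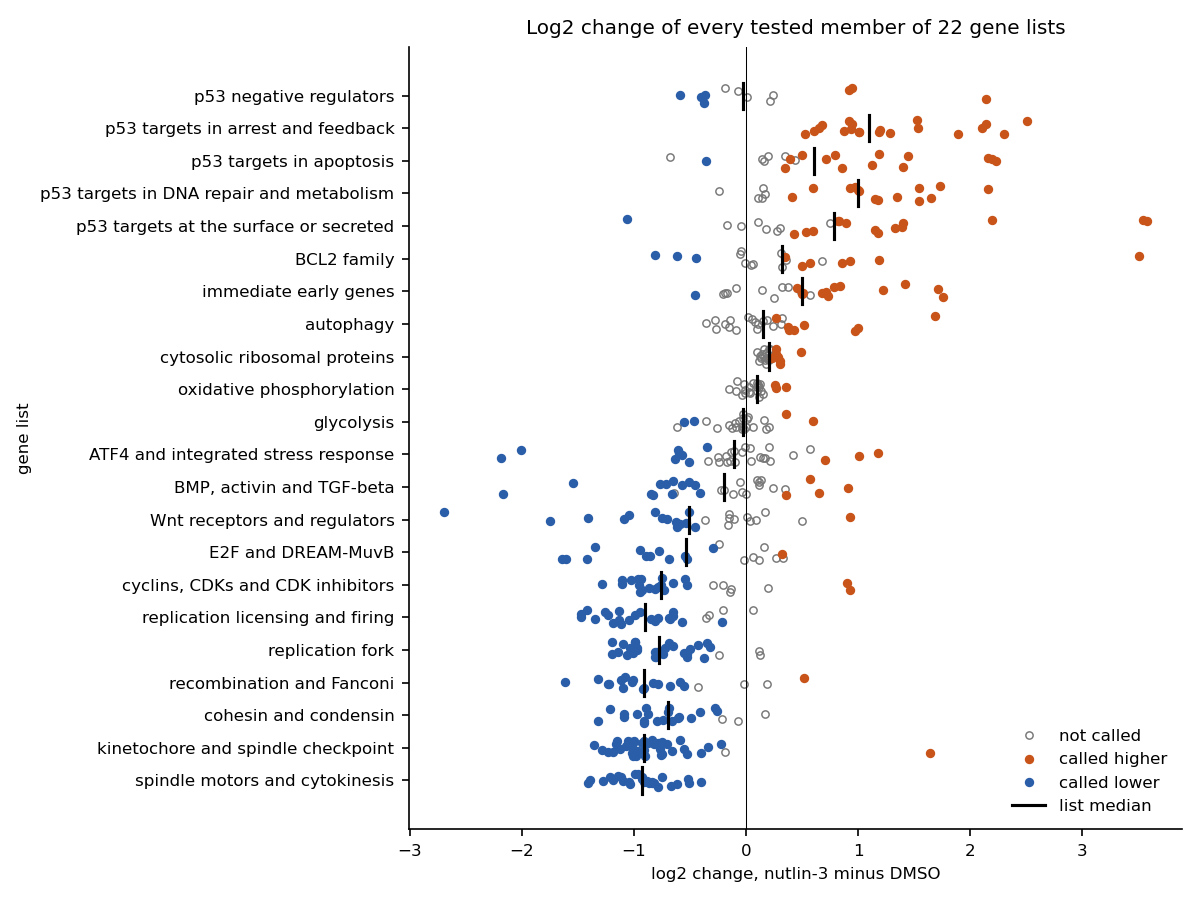
Log2 change (nutlin-3 minus DMSO, horizontal axis) of every tested member of 22 gene lists (vertical axis). Filled points are genes called higher (orange) or lower (blue), open points were not called, and bars mark list medians, which run from 1.10 for p53 targets in arrest to -0.93 for spindle motors.

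Of 22 tested p53 targets at the cell surface or secreted, 14 rose and 1 fell, with a median of 0.79. Over all genes 12.5% rose and 13.9% fell. GDF15, a stress cytokine, read 303, 507 and 506 with DMSO and 8292, 4283 and 3869 with nutlin-3. The nutlin-3 arrays were uneven for GDF15, but each lay above every DMSO array (change 3.55, SE 0.22). CD82, a tetraspanin, rose from 252, 173 and 254 to 1305, 1022 and 943, by 2.20. CSF1, the macrophage growth factor, rose by 1.39, TGFA, an epithelial growth factor, by 1.33, and KITLG, the ligand of KIT, by 1.15. SERPINB5, the serpin maspin, stood at 6.29, 4.45 and 13.1 with DMSO, under the filter signal, and at 243, 293 and 265 with nutlin-3. It passed the filter only through groups other than DMSO. Its rise of 3.58 becomes 2.20 with a pseudocount of 64, since the DMSO level is near the background. PTPRE (1.18), HBEGF (0.89), EPHA2 (0.83), PLXNB3 (0.82), PLXNB2 (0.60), SLC12A4 (0.53) and DCBLD2 (0.42) also rose, although DCBLD2 changed by -0.10 against the untreated arrays. The call of PLXNB3 was lost in 11 of 17 alternatives and that of SLC12A4 in 6 of 18. EDA2R, VWCE, UNC5B, THBS1, NOTCH1, CD58 and CX3CL1 lay between -0.17 and 0.75 and were not called. Against the untreated arrays CX3CL1 (-0.86), NOTCH1 (-0.76), CD58 (0.25) and VWCE (0.79) were called, and THBS1 was called without DMSO replicate 1 (0.30). EDN2, an endothelin, fell by 1.06, and by 0.50 against the untreated arrays.

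A longer list of cytokines and factors secreted by senescent cells had 20 tested members, of which 11 rose and 3 fell. Their median was 0.55. Over all genes 12.5% rose and 13.9% fell, and the falls in this list are near that share. MMP3, a matrix metalloproteinase, rose from 1657, 1273 and 1241 to 5454, 5393 and 4675, by 1.89. ESM1, an endothelial proteoglycan, rose by 3.46 and CCL20, a chemokine for lymphocytes, by 1.65. IL6 had 54.2, 48.0 and 58.3 with DMSO and 83.0, 87.3 and 83.1 with nutlin-3, and its change of 0.53 was not called (adjusted p = 0.13). CXCL8 had groups that overlapped (change 0.12), and 10 of the 33 listed genes lay under the filter. STC1, a secreted glycoprotein, fell by 1.18.

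Of 13 tested long non-coding RNA genes, 7 rose and 2 fell, with a median of 0.70. Over all genes 12.5% rose and 13.9% fell, and the falls in this list are near that share. PURPL, an RNA that is known to bind MYBBP1A and lower basal p53, read 595, 428 and 455 with DMSO and 1753, 1928 and 1620.3 with nutlin-3, a rise of 1.82 (SE 0.13). TP53TG1 rose from 456, 596 and 569 to 1913, 2499.8 and 2499.5, by 2.06. UNC5B-AS1 rose by 2.94, while UNC5B, the netrin receptor on the opposite strand, changed by 0.28 and was not called. LINC01088 rose by 3.00, or by 1.91 with a pseudocount of 64. LINC-PINT rose by 0.81, MALAT1 by 0.70 and LINC00475 by 0.70. HOTAIR fell by 0.62 against DMSO, but changed by 0.39 against the untreated arrays. DLEU2, a host gene of microRNAs, fell by 1.08 and by 0.67 as the mean of its probe sets. A gene and its antisense partner are told apart here only as far as the probe sets are specific to a strand.

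Genes of the cell cycle machinery fell on a broad front. Fewer cycling cells and less RNA per cell cannot be told apart in bulk samples. Of 20 E2F factors, partners, pocket proteins and MuvB subunits tested, 12 fell and 1 rose (median -0.54), where 13.9% of all genes fell. The activator E2F1 read 366, 410.1 and 296 with DMSO and 139, 95.7 and 139 with nutlin-3, a fall of 1.41 (SE 0.23, adjusted p = 1.8e-04). E2F2 fell by 1.61, and the late repressor E2F8 fell by 1.64, from 1208, 1126 and 1137 to 342, 392 and 348. E2F7, the other atypical repressor and a known p53 target, was the member that rose, from 4019.6, 4149 and 4607 to 5319.5, 5236 and 5375. Its groups did not overlap, and its change of 0.32 (adjusted p = 0.0041) missed the threshold after median centring (0.30). MYBL2 and FOXM1, the activators of late cell cycle genes, fell by 1.34 and 0.95. The repressor E2F4 changed by 0.33 and the pocket protein gene RBL2, which encodes p130, by 0.16, and neither was called.

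Genes of cyclins, their kinases and the regulators of these mostly fell. Of 25 tested cyclins, CDKs, their phosphatases and inhibitors, 18 fell and 2 rose, with a median of -0.76. Over all genes 13.9% fell and 12.5% rose, so the rises are a smaller share here. The genes that rose were the D-type cyclins of early G1. CCND1 read 2597, 2563 and 2604 with DMSO and 4540.1, 5124 and 4873 with nutlin-3 (change 0.90, SE 0.082), and CCND2 rose from 6439.8, 7516 and 7866 to 13566, 13633 and 14233 (change 0.93, SE 0.094). Neither gene's groups overlapped. The third D-type cyclin, CCND3, changed by -0.13, and their partners CDK4 and CDK6 by -0.20 and 0.19, none of them called, although another probe set of CDK6 rose by 0.42. CDC25A, the phosphatase that frees CDK2 for S phase, fell by 1.29, from 1245, 1238 and 995 to 454, 508 and 431, and by 0.82 against the untreated arrays. CCNE2, the partner of CDK2 at the start of S phase, fell by 1.10 and CCNA2, the S and G2 cyclin, by 1.02. CDC25C, which releases CDK1 at mitosis, fell by 1.11. CDK1 itself read 13685, 14786 and 15947 with DMSO and 7426, 7135 and 9996 with nutlin-3 and fell by 0.87.

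DNA replication genes fell from licensing to the fork. Of 26 genes of origin licensing and firing 22 fell and none rose (median -0.90), where 13.9% of all genes fell. MCM6, a subunit of the replicative helicase, read 6727, 6983 and 6468 with DMSO and 2209, 2545 and 2498 with nutlin-3, a fall of 1.47 (SE 0.080, adjusted p = 1.2e-09). The other helicase subunits MCM2, MCM5 and MCM3 fell by 1.47, 1.42 and 1.34, and no array of either group overlapped for these genes. CDC45, which joins the MCM ring at firing, fell by 1.26. The origin binding subunits ORC2, ORC4 and ORC6 and the helicase partner GINS4 were not called, at -0.21, 0.062, -0.36 and -0.33. Another probe set fell by 0.44 for ORC2 and by 0.95 for GINS4.

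At the replication fork 28 of 31 genes fell and none rose (median -0.78), where 13.9% of all genes fell. POLA1, the catalytic subunit of the primase polymerase, fell by 1.19, from 901, 939.7 and 933 to 375, 375 and 439. DNA2, a nuclease of Okazaki fragments, fell by 1.19, the checkpoint mediator CLSPN by 1.14, and UHRF1, which guides DNA methylation at forks, by 1.10. PCNA, the sliding clamp and a known p53 target, stood apart: it read 14452, 15946 and 13898 with DMSO and 16087, 15597 and 16419 with nutlin-3, groups that overlapped (change 0.12, SE 0.084, adjusted p = 0.33). RFC5 (0.12) and RPA3 (-0.24) were the other members without a call, although 2 further probe sets of RFC5 fell, by 1.00 and 0.74. Of 18 enzymes that supply nucleotides, 8 fell and 1 rose (median -0.25). TK1, the salvage kinase of S phase, fell by 1.25, from 5596, 5755 and 5663 to 2249, 2384 and 2486, and the reductase subunits RRM2 and RRM1 by 0.76 and 0.71. TYMS, thymidylate synthase, read 30363, 33517 and 31012 with DMSO and 31910.0, 29072 and 33792 with nutlin-3 and was not called (adjusted p = 0.98). NME1, a nucleoside diphosphate kinase, rose by 0.66.

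Mitotic genes fell almost without exception. All 27 tested spindle motor and cytokinesis genes fell, with a median of -0.93, where 13.9% of all genes fell. KIF11, the kinesin that pushes spindle poles apart, read 2962, 2775 and 2682 with DMSO and 1048, 1078 and 1016 with nutlin-3, a fall of 1.41 (SE 0.099, adjusted p = 1.8e-08). The minus-end motor KIFC1 fell by 1.39, the chromokinesin KIF22 by 1.27 and KIF18B by 1.21. Among 42 kinetochore and spindle checkpoint genes there were 40 falls and 1 rise (median -0.91). SPC24 of the microtubule-binding NDC80 complex fell by 1.35, CENPM by 1.28, the kinase AURKB by 1.23 and CENPA, the centromeric histone, by 1.18. CENPW was not called (-0.19). The gene that rose was MAD1L1, which encodes the checkpoint protein MAD1 that carries MAD2 to kinetochores. It read 1006, 1108 and 1042 with DMSO and 3307, 3159 and 3488 with nutlin-3, groups that lay far apart (change 1.64, SE 0.11). A single probe set measured MAD1L1. Among 23 cohesin and condensin genes 20 fell and none rose (median -0.70). The largest falls there were those of the cohesin cutter ESPL1 (-1.32) and the condensin subunits NCAPH (-1.21), SMC2 (-1.09) and NCAPG (-1.09).

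Genes of repair by homologous recombination fell with the S phase genes. Among 20 recombination and Fanconi genes there were 16 falls and 1 rise (median -0.91), where 13.9% of all genes fell. RAD54L, a motor protein of strand pairing, read 1493, 1485 and 1314 with DMSO and 499, 459 and 418 with nutlin-3, a fall of 1.61 (SE 0.095, adjusted p = 3.1e-09). The nuclease EXO1 fell by 1.32 and the helicases BRIP1 and BLM by 1.23 and 1.22. RAD51C, a recombination mediator, was the member that rose, from 3247, 3684 and 3661 to 4603, 5182 and 5380.3, by 0.52, with no overlap. Of 20 damage checkpoint genes 11 fell and none rose (median -0.37). CHEK1, the kinase of the S phase checkpoint, fell by 0.97 and H2AX, the histone marked at breaks, by 1.01, and its change against the untreated arrays was -1.57. ATR, NBN, RAD50 and TP53BP1 lay between -0.093 and 0.17 without a call.

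Promoters of the genes that fell together were read for the elements by which DREAM and E2F are known to act. RefSeq gave a promoter (250 bases before to 50 after the start, GRCh38.p14) for 11012 of the 13673 genes. The E2F element was searched as TTTCCCGC or TTTGGCGC and the CHR as TTTGAA, on both strands. The E2F element was held by 391 of the 11012 promoters (3.55%), by 101 of 1594 whose genes fell (6.34%) and by 23 of 1360 whose genes rose (1.69%). In the licensing list it was in 9 of 22 promoters (40.9%) and in the fork list in 7 of 27 (25.9%), while the CHR was in 1 promoter of each list. The CHR was held by 10.2% of the 11012 promoters, by 14.9% of those whose genes fell and by 8.82% of those whose genes rose. For changes of at least 2-fold it was in 49 of 213 whose genes fell (23.0%) and in 37 of 274 whose genes rose (13.5%). Over all 27305 promoters read, tested or not, the CHR share was 15.4%, with a median GC content of 58.3% against 65.0% for the 11012. The CHR was in 19 of 24 promoters of spindle motor genes (79.2%), in 18 of 34 of kinetochore genes (52.9%) and in 9 of 19 of cohesin and condensin genes (47.4%). The CCAAT box (CCAAT), which often accompanies the CHR, was in 36.2% of the 11012 promoters. It was in 79.2% of those of the spindle motor list, and 17 of these 24 held both. None of these motifs contains another, and a match is a description of letters and not a bound site.

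The 3 licensing genes with the largest falls whose promoter holds the E2F element before its start show where it lies. Each sequence runs 5′ to 3′ along the gene's strand and ends 1 base before the RefSeq start, with the element in capitals. MCM6 (chr2:135876444-135876693, minus strand) carries it at -152 and -90 bases from the start, MCM3 (chr6:52284743-52284992, minus strand) at -174 and GINS2 (chr16:85688955-85689104, minus strand) at -31. These genes fell by 1.47, 1.34 and 1.23.
MCM6: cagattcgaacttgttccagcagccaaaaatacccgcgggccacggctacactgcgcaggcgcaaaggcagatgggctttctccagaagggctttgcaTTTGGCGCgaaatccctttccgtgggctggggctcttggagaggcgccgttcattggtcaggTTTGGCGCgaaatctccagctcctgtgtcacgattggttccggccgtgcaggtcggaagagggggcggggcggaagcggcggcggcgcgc
MCM3: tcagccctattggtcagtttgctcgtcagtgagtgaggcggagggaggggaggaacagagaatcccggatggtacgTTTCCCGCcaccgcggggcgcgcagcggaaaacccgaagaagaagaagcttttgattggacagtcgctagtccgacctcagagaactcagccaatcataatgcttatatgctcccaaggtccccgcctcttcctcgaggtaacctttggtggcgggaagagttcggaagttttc
GINS2: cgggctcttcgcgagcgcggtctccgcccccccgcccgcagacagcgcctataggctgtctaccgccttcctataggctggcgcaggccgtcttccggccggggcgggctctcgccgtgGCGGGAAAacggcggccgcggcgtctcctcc

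The CHR, again in capitals, is shown for mitotic genes that hold it before their start, the 2 with the largest falls in the kinetochore list and the 2 in the spindle motor list. KIFC1 and KIF18B, which fell further than KIF15, hold it only after their start. CENPA (chr2:26785906-26786055, plus strand) has it at -18, BUB1B (chr15:40160919-40161068, plus strand) at -23, KIF11 (chr10:92592980-92593129, plus strand) at -28 and KIF15 (chr3:44761644-44761793, plus strand) at -35, and these genes fell by 1.18, 1.16, 1.41 and 1.19. In KIF11 and KIF15 the element reads on the other strand, as TTCAAA.
CENPA: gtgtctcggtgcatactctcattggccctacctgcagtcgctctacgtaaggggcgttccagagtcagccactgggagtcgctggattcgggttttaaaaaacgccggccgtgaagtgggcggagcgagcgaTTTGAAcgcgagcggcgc
BUB1B: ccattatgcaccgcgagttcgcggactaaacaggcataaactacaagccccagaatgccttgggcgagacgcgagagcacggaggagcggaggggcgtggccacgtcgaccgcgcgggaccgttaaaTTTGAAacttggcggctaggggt
KIF11: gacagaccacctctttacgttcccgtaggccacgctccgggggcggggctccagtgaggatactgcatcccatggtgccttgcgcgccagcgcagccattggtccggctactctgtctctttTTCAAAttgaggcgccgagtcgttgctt
KIF15: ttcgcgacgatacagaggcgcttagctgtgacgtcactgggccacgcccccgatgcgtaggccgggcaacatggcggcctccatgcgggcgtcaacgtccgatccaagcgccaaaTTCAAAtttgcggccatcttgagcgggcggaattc

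Among the genes that rose, the full p53 site, a pair of p53 decamers at most 13 bases apart, was rare in these windows. It was found in 5 of 11012 promoters, of which 3 belonged to genes that rose, none to genes that fell and 2 to genes that were not called. A single decamer was in 5.26% of the 11012 promoters, in 7.72% of those whose genes rose and in 4.39% of those whose genes fell. The windows of CDKN1A, MDM2 and MDM4 held no decamer. The long non-coding RNA genes PURPL (chr5:27472142-27472291, plus strand) and EIF2AK3-AS1 (chr2:88538470-88538719, plus strand) carried the site before their start, at -127 and -237, and are shown after their values were seen. PURPL rose by 1.82, and EIF2AK3-AS1 rose from 45.0, 36.5 and 44.0 to 136, 166 and 165, by 1.56 (adjusted p = 0.0013). The DMSO values of EIF2AK3-AS1 lay under the filter signal of 49.3, so it passed the filter only through other groups. Capitals mark the p53 site.
PURPL: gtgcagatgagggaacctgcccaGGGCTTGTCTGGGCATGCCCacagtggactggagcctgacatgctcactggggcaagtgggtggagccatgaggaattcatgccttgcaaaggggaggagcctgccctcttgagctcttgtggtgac
EIF2AK3-AS1: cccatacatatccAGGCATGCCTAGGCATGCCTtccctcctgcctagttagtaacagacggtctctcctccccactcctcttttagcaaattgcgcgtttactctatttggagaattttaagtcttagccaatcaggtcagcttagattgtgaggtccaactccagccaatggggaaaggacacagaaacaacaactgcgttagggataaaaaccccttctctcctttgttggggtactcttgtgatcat

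**Figure D3:**
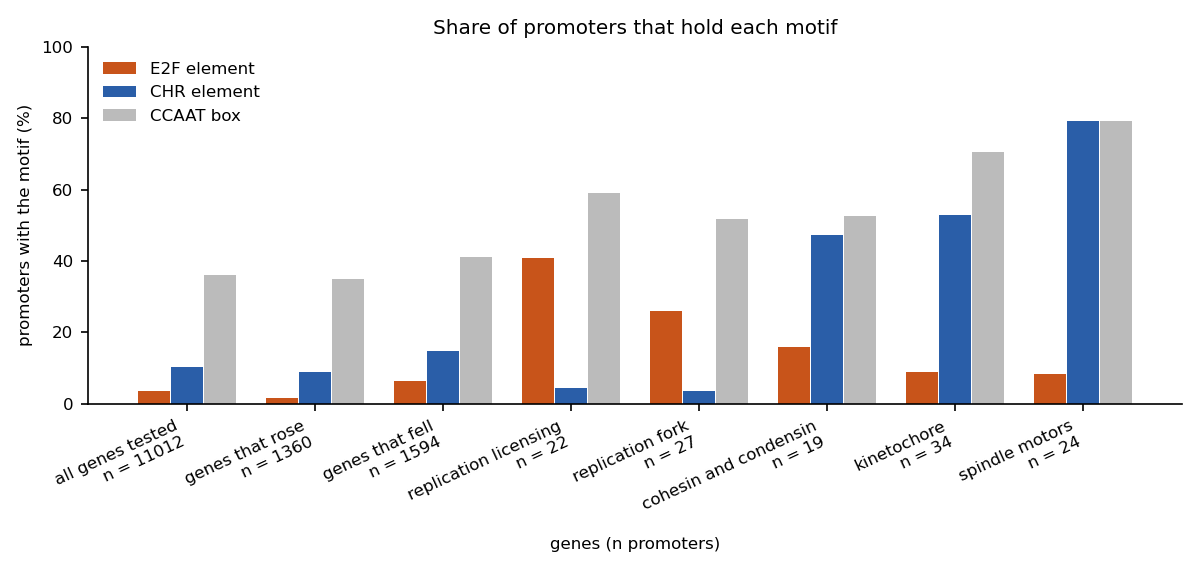
Share of promoters (%, vertical axis) that hold the E2F element (orange), the CHR element (blue) or the CCAAT box (grey) on either strand, for all genes tested, genes that rose or fell and 5 gene lists (n promoters under each). The E2F element is in 40.9% of licensing promoters and 3.55% of all, and the CHR element in 79.2% of spindle motor promoters and 10.2% of all.

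The response to nutlin-3 was set against that to doxorubicin, which breaks DNA, by testing the difference of both changes. These comparisons share no array. The difference was called for 5396 genes, 39.5% of those tested, and for 1972 of the 3613 genes called with nutlin-3. With nutlin-3 relative to doxorubicin, 2414 of all 13673 genes were higher and 2982 lower. Doxorubicin itself gave calls for 55.7% of the genes. Of the 3613 genes, 2141 were called in the same direction with doxorubicin, 494 in the opposite direction and 978 not at all, and for 556 of these 978 the difference was called. Replication licensing genes were lower with nutlin-3 relative to doxorubicin in 20 of 26 members and higher in none. CDC6, which loads the MCM ring, fell by 1.13 with nutlin-3 and rose by 0.92 with doxorubicin (difference -2.05, SE 0.13, adjusted p = 5.4e-09). Recombination genes were lower in 15 of 20 members and higher in none, with RAD54L at -1.61 against 0.30 (difference -1.91, adjusted p = 2.2e-08). Among E2F and DREAM genes 11 of 20 were lower and 1 higher, and E2F8 differed by -1.95. Of 27 spindle motor genes 9 were lower and 4 higher, and the share that was higher is near that over all genes. Of 20 arrest targets 10 were lower with nutlin-3 and 3 higher, these being CCNG1 (difference 1.03), MDM2 (0.72) and PHLDA3 (0.50). CDKN1A differed by -0.17 (SE 0.15, adjusted p = 0.40), which was not called. CCND2 rose with nutlin-3 while it changed by -0.55 with doxorubicin (difference 1.48), and BCL2L11 fell with nutlin-3 while it changed by 0.56 (difference -1.38).

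**Figure D4:**
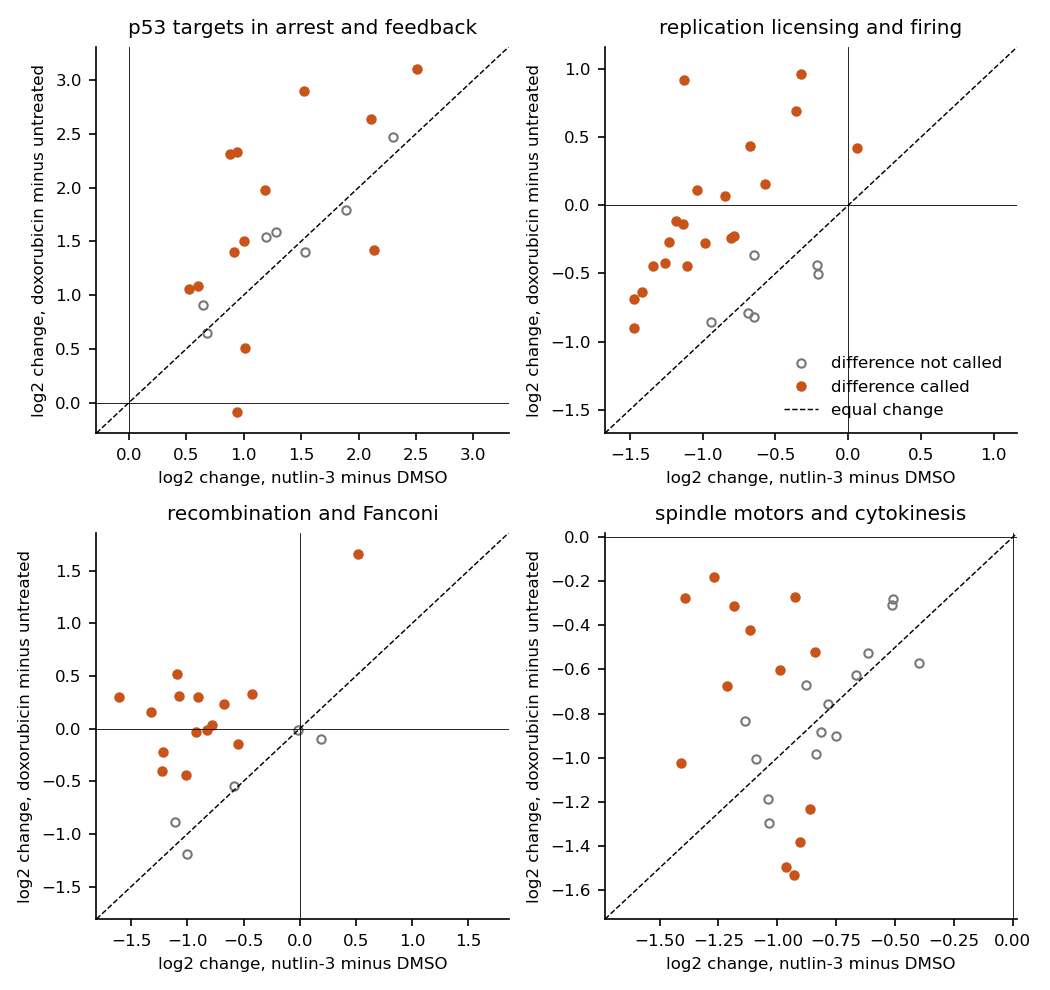
Log2 change with nutlin-3 against DMSO (horizontal axis) and with doxorubicin against untreated cells (vertical axis) for the tested members of 4 gene lists. Filled points have a called difference and the dashed line marks equal changes: 20 of 26 licensing genes and 15 of 20 recombination genes are filled, all with a lower value for nutlin-3, while spindle motor genes lie on both sides.

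Outside the cell cycle, Wnt receptors and regulators fell. Of 25 tested members 14 fell and 1 rose, with a median of -0.50, where 13.9% of all genes fell and 12.5% rose. LGR5, the R-spondin receptor of many stem cells, read 863, 622 and 808 with DMSO and 113, 86.1 and 114 with nutlin-3, groups that lay far apart, and fell by 2.69 (SE 0.17, adjusted p = 6.1e-09). Its ligand RSPO3 fell by 1.41, from 313, 214 and 266 to 101, 103 and 66.6. FZD2, a Wnt receptor, fell by 1.04, from 3039.7 ± 462 to 1464 ± 145 (SD, n = 3). SOSTDC1, a secreted antagonist of Wnt and BMP, was dim and fell by 1.75, or by 0.93 with a pseudocount of 64. The Wnt antagonist DKK1 rose by 0.93, a call that was lost when nutlin-3 replicate 1 (0.82) or 3 (0.88) or DMSO replicate 1 (0.86) or 3 (0.85) was left out.

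In the BMP and TGF-beta list 12 of 29 members fell and 4 rose, with a median of -0.20, where 13.9% of all genes fell and 12.5% rose. The share that rose is near that of all genes. The ligand BMP4 read 5127, 4010.0 and 4002 with DMSO and 1504, 1249 and 1726 with nutlin-3, a fall of 1.54 (SE 0.12). ATOH8, a transcription factor downstream of BMP, fell by 2.17, from 394, 321 and 311 to 61.9, 67.1 and 61.0, and by 1.23 as the mean of its probe sets. The decoy receptor BAMBI fell by 0.84, but by 0.47 against the untreated arrays. The direct BMP targets ID1, ID2 and ID3 changed by 0.24, -0.11 and 0.10 and were not called. LTBP2, which binds the matrix, rose by 0.91 and INHBA, the activin subunit, by 0.65. Of 15 Notch genes 4 rose and 2 fell, with 2 rises without nutlin-3 replicate 1. HES1, a Notch target, rose by 0.55 against DMSO, but changed by -0.06 against the untreated arrays.

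Collagens and adhesion receptors moved in both directions. Of 18 collagen genes 6 rose and 4 fell (median 0.13), where 12.5% of all genes rose and 13.9% fell. COL8A1 fell by 1.93, from 2141, 1648 and 1869 to 547, 448 and 454, and the fibrillar COL3A1 by 1.54. COL13A1, a transmembrane collagen, rose by 1.42, and COL6A3 rose from 4484, 3657 and 4136 to 10941, 8424 and 9151, by 1.21. COL1A1, the main bone collagen, had 4 probe sets that disagreed: the brightest changed by 0.088 and was not called, and another fell by 0.43 (adjusted p = 0.044). Of 21 integrin and laminin genes 7 rose and 2 fell, the falls being a smaller share than over all genes. ITGA2, the collagen-binding alpha 2 subunit, read 559.5, 467 and 511 with DMSO and 3134, 2819.9 and 2964 with nutlin-3, groups that lay far apart, and rose by 2.50 (SE 0.12, adjusted p = 2.7e-10). The laminin-binding ITGA6 rose by 1.11 and ITGA3 by 0.91.

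Among 21 regulators and targets of YAP and TEAD, 8 rose and 1 fell (median 0.20), where 12.5% of all genes rose and 13.9% fell. The fall was that of AJUBA (-0.21), whose call was lost in 11 of 18 alternatives. ANKRD1 rose from 1373, 1804 and 2139 to 4947, 4072 and 4215, by 1.33, and CCN2, a matricellular protein, by 1.14, or by 0.71 against the untreated arrays. Of 23 immediate early genes 12 rose and 1 fell (median 0.50). EGR1 had spread-out replicates, 1338, 1981 and 3081 with DMSO and 10046, 5191 and 5599.7 with nutlin-3, that did not overlap, and rose by 1.71 (SE 0.24). DUSP5, a phosphatase of ERK, rose by 1.76. FOS rose by 1.23, and by 0.73 without nutlin-3 replicate 1.

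**Figure D5:**
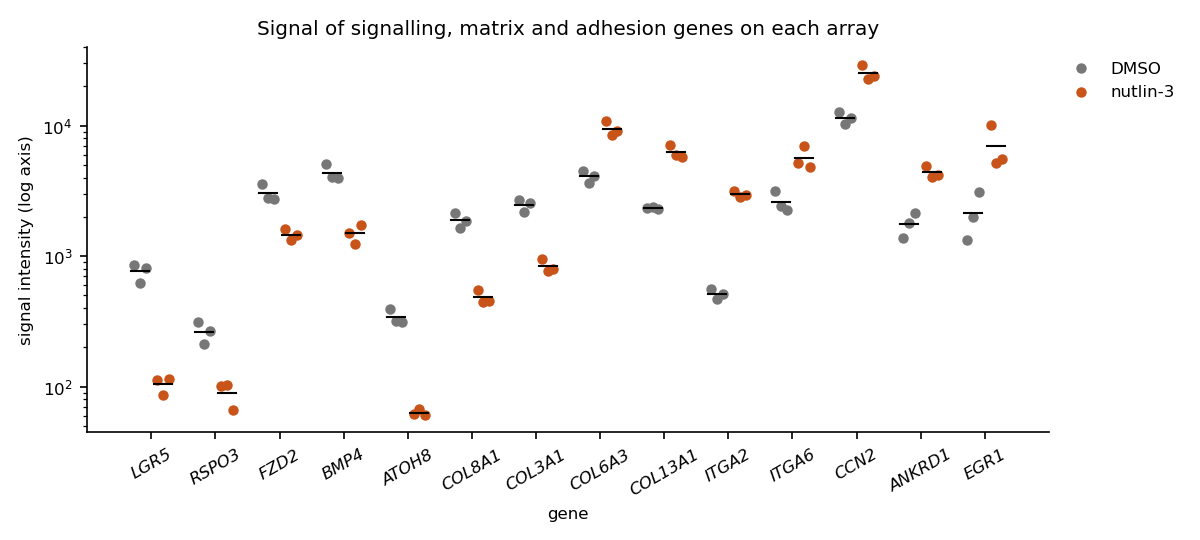
Signal intensity (log axis) of 14 signalling, matrix and adhesion genes on the 3 DMSO arrays (grey) and the 3 nutlin-3 arrays (orange), with bars at the group means. LGR5 went from a mean of 764 to 104 and BMP4 from 4379.5 to 1493, ITGA2 from 512 to 2973, and no gene's groups overlap.

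Stress, nutrient and metabolic lists held both rises and falls, beside 12.5% of all genes that rose and 13.9% that fell. Some of their shares, such as the rises among ATF4 genes, lie near or under these. Of 31 genes of the ATF4 stress response 3 rose and 8 fell (median -0.11). FGF21, a stress hormone, read 285, 425 and 561 with DMSO and 119, 57.7 and 65.6 with nutlin-3, a fall of 2.19, or of 1.16 against the untreated arrays, and INHBE, an activin subunit, fell by 2.01. ATF4 itself changed by 0.21 and its target ASNS by -0.033, and neither was called. NUPR1 rose by 1.18 and SESN2 by 1.00. In the list of mTORC1 brakes and AMPK subunits 6 of 20 rose and 1 fell. After SESN1, the largest rises there were those of SESN3 (1.08, but 0.30 and not called against the untreated arrays), SESN2 (1.00) and the AMPK subunit PRKAB2 (0.98). Of 25 autophagy genes 8 rose and none fell (median 0.15). DRAM1, a lysosomal membrane protein and known p53 target, rose from 543, 399.9 and 437 to 1518, 1596 and 1406, by 1.69, and WIPI1, an early autophagosome protein, by 1.00. Cholesterol synthesis had 7 falls and 2 rises among 17 genes (median -0.31), with INSIG1, the sterol-sensing brake, falling by 1.12. Ribosomal protein genes rose in 7 of 25 and fell in none, all by at most 0.49 (median 0.20). That count was 1 after median centring, 1 without nutlin-3 replicate 3 or DMSO replicate 1, and 2 without nutlin-3 replicate 1 or DMSO replicate 3. Respiratory chain genes rose in 3 of 24, in 0 after median centring and in 1 without nutlin-3 replicate 3 or DMSO replicate 1, and glycolysis genes in 2 of 24, where 12.5% of all genes rose, with no fall in the first list and 2 in the second. In the other lists, 7 of 13 histone genes fell and 1 rose, 4 of 18 NRF2 targets rose and 2 fell, 6 of 20 lysosomal genes rose and 2 fell, 3 of 18 ribosome biogenesis genes rose and 1 fell, and 6 of 28 axon guidance genes rose and 2 fell. Except for the histone genes, the falls in these lists are a smaller share than the 13.9% over all genes. The rises among ribosome biogenesis genes are near the 12.5% over all genes. The falls among histone genes were 4 without DMSO replicate 2, and the rises among lysosomal genes 3 without nutlin-3 replicate 1 or DMSO replicate 2 and 2 without DMSO replicate 3. AKR1B10, an aldo-keto reductase under NRF2, rose by 1.69, and EFNB1, an ephrin, by 1.04.

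Some nucleic acid sensors rose. Of 15 innate sensors and APOBEC3 genes 5 rose and 1 fell (median 0.33), where 12.5% of all genes rose and 13.9% fell. APOBEC3C, a cytidine deaminase, rose from 896, 1292 and 954 to 3459.5, 3669.9 and 3801, by 1.80. TLR3, the receptor of double-stranded RNA, rose by 1.62 and IFI16, a DNA sensor, by 1.07, while APOBEC3B fell by 0.49. Of 15 interferon-stimulated genes 1 rose and 5 fell (median -0.06), with 3 falls without DMSO replicate 3. ISG15 rose by 0.43, and IFIT1 fell by 1.13, from 369.9, 361 and 407 to 160.4, 154 and 178. In the MHC class I list 4 of 14 rose and 1 fell. TAP1, the peptide transporter, rose from 801, 764 and 689 to 2735, 2243 and 2127, by 1.63, while B2M changed by 0.014.

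Some of the largest changes lay outside these lists, a part of them in genes of other tissues. The largest rise of all genes tested was that of SUGCT (3.62). NBEAP1 rose by 3.55, or by 2.31 in its lowest alternative, PSTPIP2 by 3.10 and CSMD3 by 3.04. GRHL3, a transcription factor of surface epithelium, rose by 2.89, from 89.3, 35.6 and 76.4 to 514, 676 and 542, with no overlap. NECTIN4, an adhesion molecule, rose from 138, 114 and 138 to 1108, 1083 and 943, by 2.86 (SE 0.15). CDH10, a neural cadherin, rose by 2.78, SULF2, which trims heparan sulfate, by 2.70, and SCG5, a chaperone of secretory granules, by 2.69. TREM2, a myeloid receptor, rose by 2.59, or by 1.65 with a pseudocount of 64 and by 1.29 in its lowest alternative. Of 8 epithelial markers 5 had a mean over the filter signal, of which KRT18 rose (0.48, but 0.0085 and not called against the untreated arrays) and EPCAM fell. The summed signal of the 8 was 13866 to 14707 with DMSO and 18143 to 19597 with nutlin-3, while the median change of the 5 that were tested was -0.10. Of 8 leukocyte markers CD3E and LAPTM5 were over the filter signal, PTPRC and CD14 were under it, and the sum was 143 to 207 with DMSO and 329 to 448 with nutlin-3, with LAPTM5 rising by 1.84. The sum of 6 neural markers, 3 of them over the filter, was 495 to 597 with DMSO and 786 to 822 with nutlin-3, and that of 6 endothelial markers, 2 of them over it, was 198 to 220 and 224 to 288. Of 6 muscle markers 3 were over it, and the sum was 1028 to 1358 with DMSO and 624 to 656 with nutlin-3. Of the 3 that were tested, only CNN1 was called, with a fall of 1.24, and their median change was 0.22. The part of the marker genes in the rises above was not tested. Among falls, the chemokine CXCL14 went from 2314, 2149 and 2264 to 781, 551 and 654, by -1.75. Its change was -2.79 against the untreated arrays and -1.31 in its weakest alternative. PCDH18, a protocadherin, fell by 1.62, NXPH2, a neurexin ligand, by 1.71 and GPR19, an orphan receptor, by 1.81.

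Over probe sets in place of genes, 2730 rose and 3110 fell, 17.8% of the 32768 tested. Of 6970 genes with several tested probe sets, 556 had every probe set called in 1 direction, 1774 had some called and none opposed, and 10 had probe sets called in opposite directions, RHOC and NFYA among them.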

How the data were processed

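Gene expression was measured in U2OS cells on Affymetrix U133 Plus 2.0 arrays. The deposited values are signal intensities on a linear scale, which the authors made with MAS5, per the submitters' processing notes, scaled so that the trimmed mean is about equal on every array. They carry no read depth, and the number of arrays limits the precision.

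From the 54675 probe sets, 62 controls were dropped, and 41091 had 1 gene symbol in the platform annotation (1801 several, 11721 not listed). A gene took its brightest probe set, and genes under the 40th percentile of mean signal over all 12 arrays (49.3) were left out. limma 3.58.1 in R 4.3.3 was fitted to log2(value + 16) on all 12 arrays with 4 group means and an intensity trend. Doxorubicin was compared through the contrast of both changes. The fit was tested on simulated data. Alternatives were the normalization, the pseudocount, the filter, the choice of probe sets, the trend, 6 arrays alone, a replicate block, untreated cells as control and leaving out each array.

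Members and gene lists were chosen with earlier results of these data known. Genes were named by rule: all measured members of the p53 regulator and target lists, the 20 largest rises and falls without overlap, up to 4 rises and 4 falls of every other list, the 10 largest differences from doxorubicin in each direction, and the promoters shown. Every other gene named, such as a member without a call, was chosen after its values were seen. FDXR, GLS2, BBC3 and DDR1 were not analysed here.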

Additional observations from a re-analysis of the deposited data

Results flagged for a closer look

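Among genes also called with nutlin-3, the largest differences between the nutlin-3 and the doxorubicin response, the latter against untreated cells, were picked out. For each, the difference itself passed the test (limma, adjusted p from 1.2e-11 to 7.8e-06, n = 3 arrays in each of 4 groups). Genes called with doxorubicin alone could not enter, and that each gene rose or fell with nutlin-3 was set by this choice. Higher with nutlin-3 relative to doxorubicin were GPX8 (difference 2.95), BCL2A1 (2.94), SCEL (2.90), RGS4 (2.85), NTM (2.77), SHOC1 (2.76), ANXA10 (2.75), RPL22L1 (2.70), ABAT (2.68) and MYOF (2.67). Of these BCL2A1, RGS4, NTM, RPL22L1, ABAT and MYOF rose with nutlin-3, while GPX8, SCEL, SHOC1 and ANXA10 fell, by less than with doxorubicin. BCL2A1 passed the filter on dim signal only through the nutlin-3 arrays. RGS4, which shortens G protein signals, rose by 2.49 and changed by -0.37 with doxorubicin. ABAT, which breaks down the transmitter GABA, rose by 1.85 and changed by -0.84.

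Lower with nutlin-3 were CA2 (difference -4.10), PADI4 (-3.98), CCM2L (-3.59), TMEM158 (-3.40), CSTA (-3.27), TTC9 (-3.25), UBE2QL1 (-3.25), IL17RB (-3.11), IDH2 (-3.10) and RHBDL3 (-3.06). PADI4, a peptidylarginine deiminase and known p53 target, rose with both agents, by 2.69 with nutlin-3 and 6.68 with doxorubicin, and so did CSTA, a cysteine protease inhibitor, by 1.38 and 4.65. The other 8 fell with nutlin-3 and rose with doxorubicin. IDH2, the mitochondrial isocitrate dehydrogenase, fell by 0.74 with nutlin-3 and rose by 2.36 with doxorubicin. The mean of PADI4 was 26.8 with DMSO and 14.6 in untreated cells, both under the filter signal of 49.3. PADI4 therefore passed the filter only through the treated arrays. Its change with nutlin-3 lay between 1.79 and 3.34 over the alternatives. Against the untreated arrays CA2 changed by -0.25 with nutlin-3, GPX8 by -0.05 and UBE2QL1 by 0.10, none of them called. The mean of UBE2QL1 was 616 with DMSO, 278 in untreated cells and 296 with nutlin-3. With another probe set IDH2 changed by -0.29 and SCEL by -0.55, neither of them called.

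Probe sets that the annotation used does not list were outside the gene comparison, and 506 of 5109 of them were called with nutlin-3, 218 higher and 288 lower.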

How the results depend on the processing

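With the untreated arrays in place of the DMSO arrays, 5432 genes were called, 2902 of them higher, and 11019 probe sets, and 2804 of the 3613 calls were also made in the same direction while 24 reversed. The other 299 values of leading counts (all calls, p53 targets that rose, cell cycle genes that fell) stayed within 1.5 times. Of the counts of the other lists and directions, 161 values moved by more and 1279 did not. Under that control the log2 change was -0.58 for ABHD4, -0.17 for AKR1C1, 0.25 for CD58, 0.0081 for COL5A2, -0.10 for DCBLD2, -0.10 for GAA, -0.061 for HES1, 0.39 for HOTAIR, -0.76 for NOTCH1 and 0.10 for UBE2QL1, each with the opposite sign to that against DMSO. As the mean of its probe sets RRP12 changed by -0.030. The cause was not tested. Leaving out 1 array gave 2839 to 3278 calls. Median centring gave 2783 calls, of which 41.8% were higher, against 47.4%. With a replicate block 3896 genes were called, 3562 of the 3613 among them. Same-numbered arrays correlated at 0.172, -0.00533 and 0.0851, so the numbers were not taken to pair the arrays. Of the values of named genes under alternatives, 5289 stayed on the same side of the threshold (genes without a call could change sign), 291 lost the call, 14 gained one and 11 reversed. Small changes of dim genes are limited by the background signal.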
